A study of Mus musculus with 8 samples.

Results

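The genes described here encode secreted glycoproteins, proteoglycans and elastic fiber proteins of the extracellular matrix. They were chosen by gene name from a fixed list, and all 43 names were found among the 33249 genes of the deposited table. By role they comprise matricellular and other secreted glycoproteins, fibronectin, small leucine-rich proteoglycans, versican, elastic fiber and microfibril proteins, basement membrane proteins and enhancers of procollagen processing. Of the 43, 42 were tested among 14028 genes with a mean of at least 0.5 FPKM (fragments per kilobase of transcript, scaled to library size) over the 8 libraries, and only Fbn2 lay under this limit.

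Poly(A) RNA from mouse myocardium was sequenced in 8 libraries, 2 in each of 4 groups. In all 4 groups the mice carried loxP sites in both Piezo1 alleles (Piezo1 fl/fl). Piezo1 encodes a mechanically gated cation channel. CKO mice also carried a Myh6-MerCreMer transgene, a tamoxifen-inducible Cre driven by the cardiomyocyte Myh6 promoter, while the control fl/fl littermates, given as WT in the genotype label, lacked the transgene. Tamoxifen was injected at 4 weeks of age at 75 mg/kg per day for 5 days to induce deletion, and whether the controls received it is not given in the sources used here. Myocardial infarction (MI) was made at 8 weeks of age through permanent LAD ligation, where LAD is the left anterior descending coronary artery, with tissue taken at day 42 after MI. Sham mice had surgery without ligation, and their labels give no day of sampling. Groups are named fl/fl or CKO, followed by Sham or MI, and each has replicates 1 and 2. The sources used here do not say that replicates were separate mice or which area of an infarcted heart was taken, so the p-values measure only the spread between these samples, which may be technical.

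The cardiac extracellular matrix is a network of fibrillar collagen to which the products of these genes are bound. Small leucine-rich proteoglycans and fibronectin organize collagen fibrils. Fibrillins, fibulins and elastin form elastic fibers and hold latent TGF-beta, whereas laminins, nidogens and perlecan build the basement membrane around each cardiomyocyte and vessel. Matricellular proteins such as periostin and the thrombospondins are secreted mainly during injury and remodeling and are known for their presence in the infarct scar.

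Total deposited counts ranged from 73821747 to 88117573 per library. The share of counts from mitochondrially encoded genes was 43.1% to 46.4% in sham and 19.9% to 24.2% after MI. Levels are therefore given as CPM, counts brought to a common library size with the trimmed mean of M values (TMM), whose factors were 0.797 to 0.855 in sham and 1.12 to 1.32 in MI libraries. Values of a gene are always given in 1 order, first fl/fl-Sham 1, fl/fl-Sham 2, CKO-Sham 1 and CKO-Sham 2, then the MI libraries of fl/fl (1 and 2) and of CKO (1 and 2).

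The libraries did not show the labelled deletion in their whole-gene counts, in which neither deleted exons nor cell types are separated. The deletion is directed to cardiomyocytes, whereas the RNA came from myocardium, which holds other cells that express Piezo1. The authors report the loss of the protein by Western blot in isolated adult cardiomyocytes. Piezo1 was at 72.2, 82.0, 76.7 and 88.3 CPM in sham and 53.5, 64.8, 56.3 and 64.6 CPM in MI. Esr1, part of whose sequence is carried by the MerCreMer fusion, was at 8.36, 6.41, 5.52 and 7.60 CPM in sham and 7.75, 331, 707 and 402 CPM in MI, so that fl/fl-MI 2 was high and both CKO-Sham libraries were low, against their labels. The library labelled fl/fl-MI 2 also stood apart in Bmp10, an atrial growth factor, with 3834 CPM against at most 18.8 CPM in any other library. Directions by genotype below thus refer to libraries as labelled. Most counts of called genes over all 42 are given with and without fl/fl-MI 2, as are the log2 fold changes of several genes that it moved. Counts by role are given with all libraries only.

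**Figure D1:**
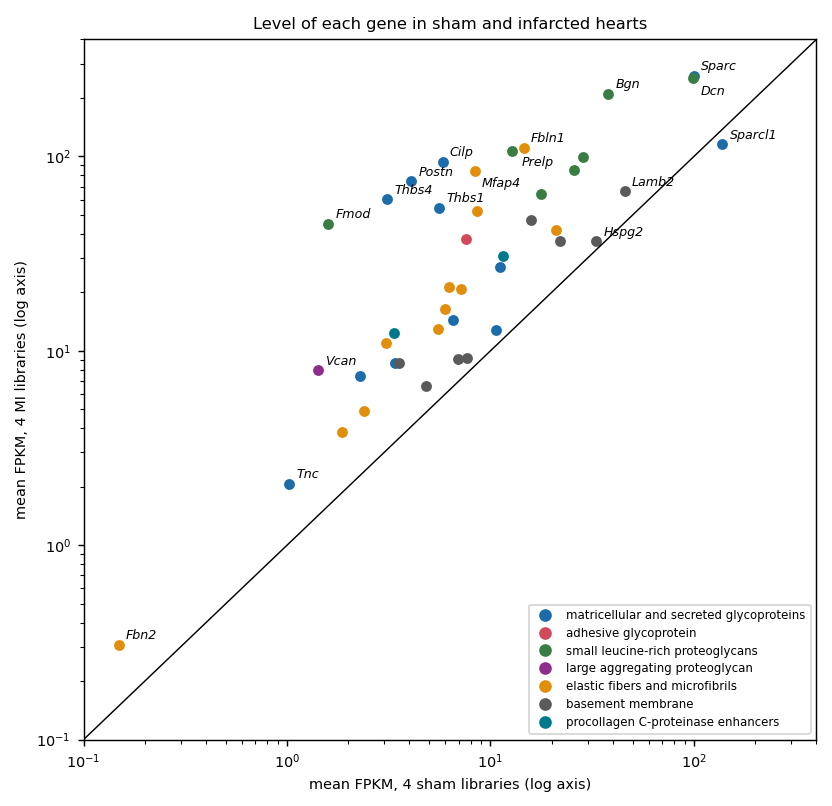
Mean level of each of the 43 genes in the 4 sham libraries (x axis, FPKM, log scale) against the 4 MI libraries (y axis, FPKM, log scale), 1 point per gene, with the diagonal marking equal levels. FPKM are not TMM-scaled, so that Hspg2 lies above the diagonal although it was lower after MI in the TMM-scaled fit.

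In sham myocardium the highest levels per length belonged to Sparcl1, Sparc and Dcn. Sparcl1, a glycoprotein related to SPARC, had 138 ± 9.55 FPKM (SD, n = 4), Sparc, which binds collagen, had 99.9 ± 11.0 FPKM, and the proteoglycan gene Dcn had 99.5 ± 4.20 FPKM. Sparc and Dcn lay within their spread of each other. Lamb2, a laminin beta chain, had 45.8 ± 3.24 FPKM and Bgn, which encodes biglycan, 37.9 ± 5.81 FPKM, so these were well below the first 3. At the low end were Tnc with 1.03 ± 0.31 FPKM and Fbn2 with 0.149 ± 0.041 FPKM. In the MI libraries Sparc ranked first with 260.0 ± 136 FPKM, followed by Dcn with 252 ± 99.7 FPKM and Bgn with 211 ± 109 FPKM. The spread between libraries was wide in these 3. Within each MI library Sparc was above Bgn (425 against 312, 112 against 80.4, 198 against 163 and 306 against 287 FPKM), whereas the order of Sparc and Dcn changed between libraries. Sparcl1 was then at rank 4 with 115 ± 29.9 FPKM. Several genes of low rank in sham rose in this order, among them Cilp from rank 27 to 8, Postn from 31 to 11, Thbs4 from 35 to 14 and Fmod from 40 to 18. The plot of mean FPKM shows these genes farthest from the diagonal. The 43 genes together took 0.396% to 0.447% of all sham counts, and after MI 1.77%, 0.637%, 0.959% and 1.42%. These totals include mitochondrially encoded counts, whose lower share after MI raises the share of all other genes. The shares in sham and MI are therefore not comparable as levels.

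The first question was how the 42 tested genes differed between MI and sham myocardium. In edgeR's quasi-likelihood test over both genotypes, 23 of the 42 rose (54.8%) and 2 fell (4.76%) at a Benjamini-Hochberg adjusted p under 0.05. The background over all 14028 genes was 22.0% higher, 18.3% lower and 40.4% in either direction. The median log2 fold change was 0.88 for the 42 genes and 0.03 for all genes tested. An unadjusted p under 0.05 was found in 29 (69.0%, against 50.2% of all genes). With at least 2-fold in addition 18 genes were higher (42.9%, against 7.91%) and none lower (against 8.08%). Without overlap between the 4 MI and 4 sham libraries, 16 of the 42 were higher (38.1%, against 20.9% of all genes) and 2 were lower (4.76%, against 19.5%). In bulk tissue, fewer cells of a type and less RNA per cell cannot be told apart. Scaling by total counts in place of TMM gave 37 genes higher and none lower (88.1%, against 57.9% of all genes called in either direction), and limma on log2(FPKM + 1) gave 34 and none (81.0%, against 56.1%). These settings moved the median of all genes to 0.59 and 0.41, and the median of the 42 genes was then 0.88 and 0.86 above it, against 0.84 above it with TMM. The number of calls depended on single libraries, being 36 without fl/fl-MI 2 (32 higher and 4 lower, against 26.9% and 23.8% of all genes), 24 without fl/fl-MI 1 (against 48.5% of all genes in either direction), 18 without CKO-MI 1 (against 31.0%) and 16 without CKO-MI 2 (against 30.1%). Without fl/fl-Sham 1, fl/fl-Sham 2, CKO-Sham 1 or CKO-Sham 2 it was 12, 12, 13 and 17, against 25.3%, 23.1%, 23.7% and 27.3% of all genes. All 25 called genes kept their sign in the 8 fits with a library left out, and 12 of them were called in every one of these fits, namely Postn, Thbs1, Thbs3, Sparcl1, Fn1, Bgn, Lum, Fmod, Fbln1, Efemp1, Lamc1 and Pcolce2.

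**Figure D2:**
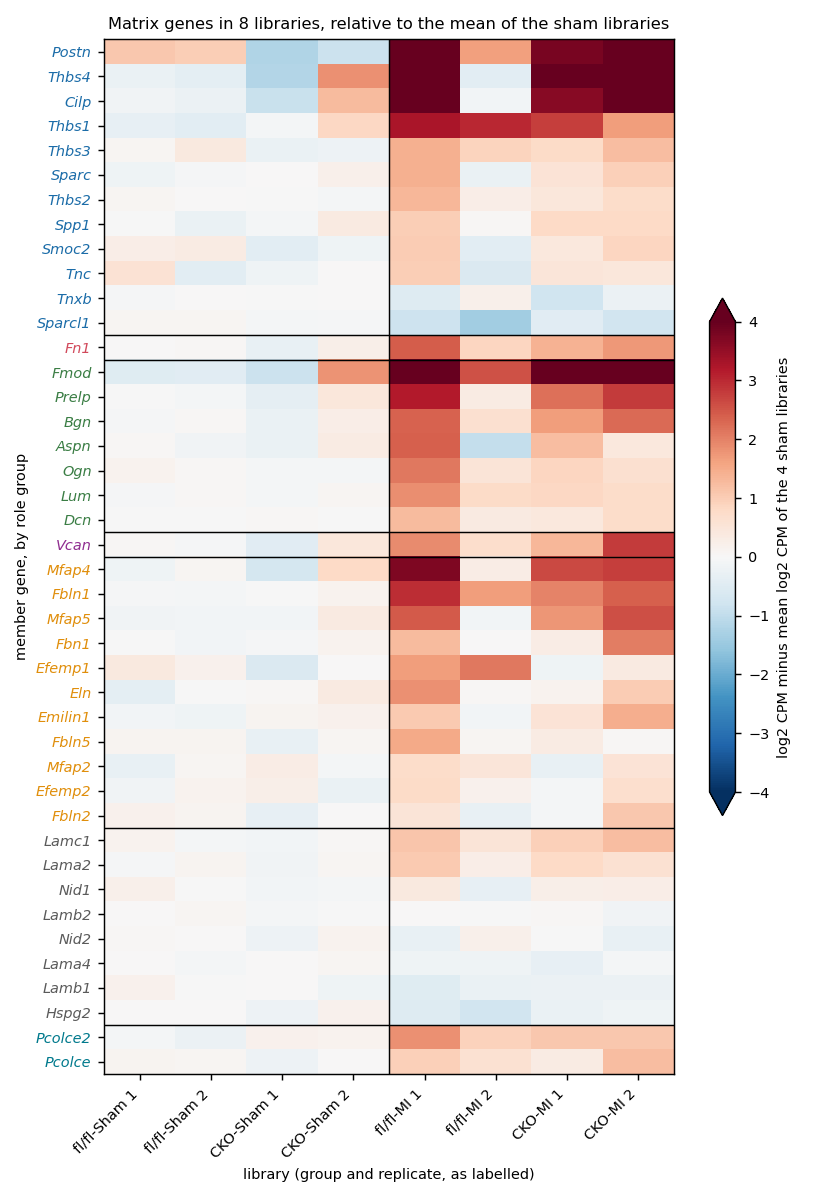
Heatmap of the 42 tested genes (rows, grouped by role) in the 8 libraries (columns), as log2 of CPM over the mean of the 4 sham libraries, with colors limited to 4 in either direction. Most rows are above sham in fl/fl-MI 1, CKO-MI 1 and CKO-MI 2 and nearer to sham in fl/fl-MI 2, while most basement membrane rows change little.

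**Figure D3:**
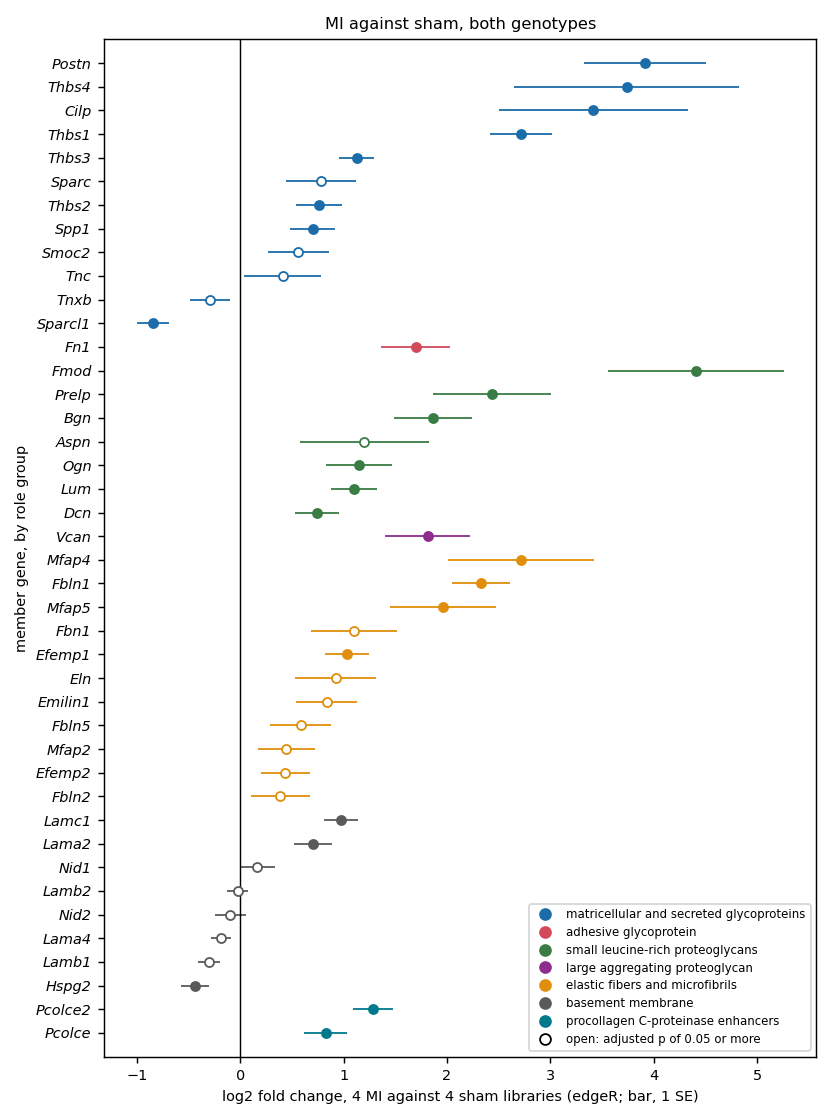
Log2 fold change of MI against sham over both genotypes (x axis) for the 42 tested genes (y axis, by role) from edgeR with TMM scaling, with bars of 1 SE, filled points for an adjusted p under 0.05 and open points for the others. Fmod, at 4.41, and Postn, at 3.91, lie farthest to the right, and Sparcl1, at -0.85, lies farthest to the left. Hspg2, Lamb1, Tnxb, Nid2, Lama4 and Lamb2, left of 0 here, were right of 0 with total counts or FPKM.

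The promoters of 5 genes are shown, namely those with the largest MI change among the genes that had a promoter in the RefSeq table, because these genes changed most. Thbs1 and Mfap4, which ranked above Prelp, had none in it. Each is the 250 bases before the RefSeq start on GRCm38.p6, written 5′ to 3′ on the strand of the gene, with TATAAA and the SMAD-binding letters CAGACA (or the reverse complement, TGTCTG) in capitals. Fmod is at chr1:134037004-134037253 (plus strand), Postn at chr3:54360857-54361106 (plus strand), Thbs4 at chr13:92794819-92795068 (minus strand), Cilp at chr9:65264930-65265179 (plus strand) and Prelp at chr1:133921402-133921651 (minus strand).
Fmod: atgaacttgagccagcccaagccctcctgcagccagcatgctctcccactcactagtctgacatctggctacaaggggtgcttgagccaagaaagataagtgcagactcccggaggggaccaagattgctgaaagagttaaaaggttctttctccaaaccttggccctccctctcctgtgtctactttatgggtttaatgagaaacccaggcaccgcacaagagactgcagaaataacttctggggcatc
Postn: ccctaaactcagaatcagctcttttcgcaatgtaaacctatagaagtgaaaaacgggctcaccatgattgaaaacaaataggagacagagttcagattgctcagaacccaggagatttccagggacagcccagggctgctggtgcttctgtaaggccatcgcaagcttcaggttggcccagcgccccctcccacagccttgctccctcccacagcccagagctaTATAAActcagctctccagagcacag
Thbs4: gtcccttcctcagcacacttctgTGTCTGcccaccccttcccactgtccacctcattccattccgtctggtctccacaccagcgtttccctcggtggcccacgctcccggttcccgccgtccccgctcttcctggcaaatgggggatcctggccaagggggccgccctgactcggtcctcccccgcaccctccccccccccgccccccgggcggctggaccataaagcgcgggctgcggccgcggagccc
Cilp: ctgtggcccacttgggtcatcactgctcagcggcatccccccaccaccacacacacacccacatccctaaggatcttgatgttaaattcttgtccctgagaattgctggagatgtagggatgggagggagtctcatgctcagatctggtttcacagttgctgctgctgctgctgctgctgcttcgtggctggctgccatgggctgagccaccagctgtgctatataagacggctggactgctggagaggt
Prelp: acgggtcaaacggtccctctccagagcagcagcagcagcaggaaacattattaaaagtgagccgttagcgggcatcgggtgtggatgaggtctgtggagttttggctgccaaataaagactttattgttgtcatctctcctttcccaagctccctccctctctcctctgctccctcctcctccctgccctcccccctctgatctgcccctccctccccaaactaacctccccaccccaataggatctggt
Of these 5, Postn alone held TATAAA, which began 26 bases before the start, and Thbs4 alone held TGTCTG. Of the 43 genes, 30 had a promoter in the RefSeq table. TATAAA occurred in 6 of the 30 (Aspn, Ogn, Postn, Spp1, Thbs2 and Tnc) and in 9.21% of all 16618 promoters of this length. CAGACA occurred in 9 of the 30 and in 14.9% of all, GGAATG, the MCAT letters bound by TEAD factors, in 4 of the 30 and in 11.5% of all, and TGANTCA, the AP-1 letters, in 2 of the 30 and in 5.52% of all. Both strands were searched, none of the 4 motifs contains another, and matches of the last 2 are not in capitals. A match describes letters only, and no match says only that the letters are not in this window.

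Among the 12 tested matricellular and secreted glycoprotein genes 7 rose after MI and 1 fell (against 22.0% and 18.3% of all genes). The median log2 fold change was 0.77. The largest changes were those of Postn, Thbs4 and Cilp. Postn (ENSMUSG00000027750, chr3:54361109-54391037, plus strand), which encodes periostin, a product of activated fibroblasts, was at 74.6, 70.2, 14.9 and 19.2 CPM in sham and 813, 111, 492 and 718 CPM in MI. All 4 MI values were above all sham values, although fl/fl-MI 2 was well below the other 3. Postn was thus 15.1-fold higher (log2 fold change 3.91 ± 0.59 (SE), edgeR adjusted p = 0.00316). Thbs4 (ENSMUSG00000021702, chr13:92751590-92794818, minus strand), which encodes a thrombospondin of the matrix of muscle and tendon, was at 7.61, 6.85, 3.76 and 33.6 CPM in sham and 222, 6.73, 171 and 249 CPM in MI. Here fl/fl-MI 2 lay within the sham range and the other 3 MI libraries above it (log2 fold change 3.74 ± 1.09 (SE), edgeR adjusted p = 0.0314). Cilp (ENSMUSG00000042254, chr9:65265180-65280605, plus strand), which encodes a cartilage intermediate layer protein able to bind TGF-beta, was at 23.8, 22.6, 13.9 and 64.9 CPM in sham and 512, 24.3, 332 and 441 CPM in MI. Again 3 MI libraries were far above sham and fl/fl-MI 2 was not (log2 fold change 3.41 ± 0.91 (SE), edgeR adjusted p = 0.0235). The size of these 3 changes depended on single libraries. Without fl/fl-MI 1 the log2 fold change was 2.87 in Postn (7.30-fold), 1.68 in Thbs4, which then missed the threshold (edgeR adjusted p = 0.0559), and 1.66 in Cilp. Without fl/fl-MI 2 it was 4.32, 4.22 and 3.88. Without CKO-Sham 2 it was 4.89 in Thbs4 and 4.16 in Cilp.

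Thrombospondin-1, which can activate latent TGF-beta, followed another pattern. Thbs1 (ENSMUSG00000040152, chr2:118111876-118127133, plus strand) was at 32.1, 29.7, 38.4 and 71.5 CPM in sham and 392, 330.2, 274 and 129.7 CPM in MI. Both libraries labelled fl/fl-MI were high, CKO-MI 2 was the lowest of the MI libraries, and all 4 were above sham (log2 fold change 2.71 ± 0.30 (SE), edgeR adjusted p = 0.00115). Thbs3 (ENSMUSG00000028047, chr3:89215180-89226837, plus strand) was at 14.5, 17.9, 11.3 and 11.7 CPM in sham and 37.2, 25.9, 23.6 and 32.7 CPM in MI, with every MI library above every sham library (log2 fold change 1.13 ± 0.17 (SE), edgeR adjusted p = 0.00316). Thbs2, an inhibitor of vessel growth, and Spp1, which encodes the cytokine-like osteopontin, rose less. Thbs2 ranged from 28.0 to 31.3 CPM in sham and from 35.8 to 76.0 CPM in MI (log2 fold change 0.76 ± 0.23 (SE), edgeR adjusted p = 0.0331). Spp1 ranged from 18.9 to 29.1 CPM in sham and from 23.7 to 45.6 CPM in MI (log2 fold change 0.70 ± 0.22 (SE), edgeR adjusted p = 0.0385), so that its groups overlapped. Sparcl1 (ENSMUSG00000029309, chr5:104079111-104113733, minus strand), an anti-adhesive glycoprotein gene, was the 1 gene of this role that fell. It was at 539, 535, 478 and 488 CPM in sham and 288, 192, 369 and 299 CPM in MI, with all MI values below all sham values (log2 fold change -0.85 ± 0.16 (SE), edgeR adjusted p = 0.00651). Its direction held with total counts, where its log2 fold change was -0.28 with an adjusted p of 0.209. Sparc (log2 fold change 0.78), Smoc2 (0.56), Tnc (0.41) and Tnxb (-0.30) did not pass the test. Without fl/fl-MI 2 these log2 fold changes were 1.08, 0.83, 0.71 and -0.50, and without fl/fl-MI 1 they were 0.22, 0.10, -0.12 and -0.15. Tnxb, which encodes tenascin X, had 174 to 184 CPM in sham and 124, 208, 104 and 154 CPM in MI, and its sign turned with total counts (0.26) and log2(FPKM + 1) (0.22).

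**Figure D4:**
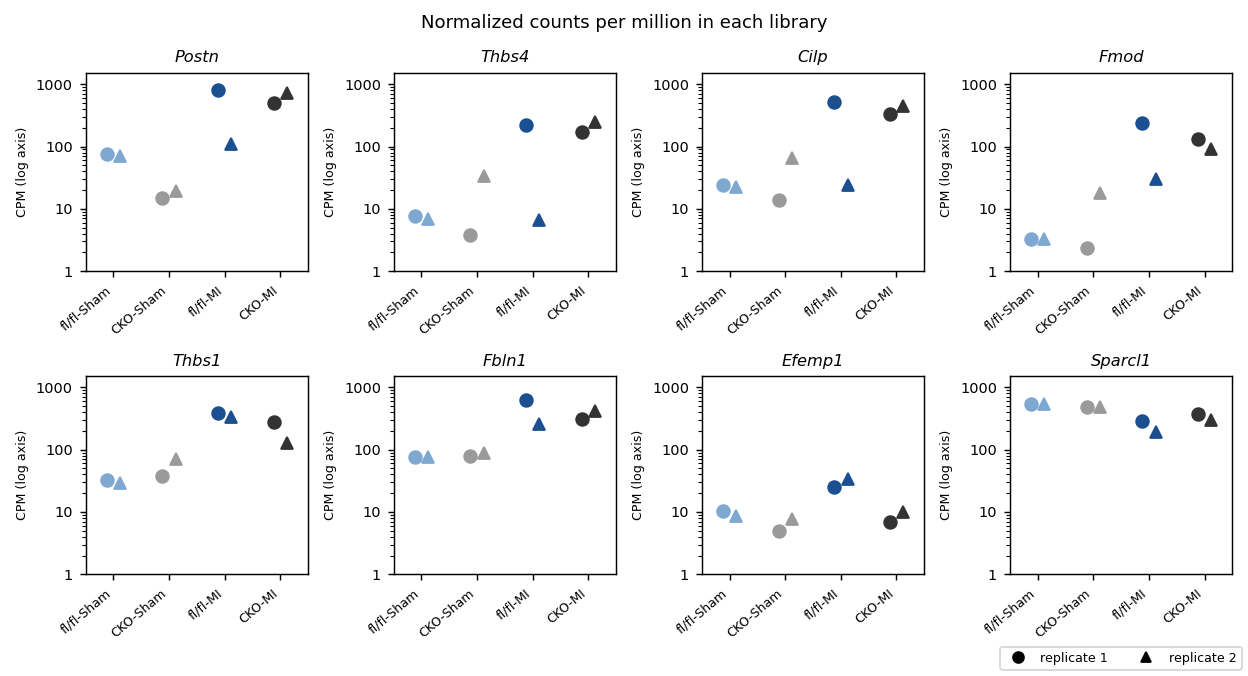
CPM (y axis, log scale) of Postn, Thbs4, Cilp, Fmod, Thbs1, Fbln1, Efemp1 and Sparcl1 in the 4 groups (x axis), with a circle for replicate 1 and a triangle for replicate 2. For Postn, Thbs4, Cilp and Fmod the triangle of fl/fl-MI lies far below the circle (for Postn at 111 against 813 CPM), for Efemp1 it lies above (34.3 against 25.3 CPM).

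Fibronectin, the adhesive glycoprotein on which collagen fibrils assemble, rose. Fn1 (ENSMUSG00000026193, chr1:71585520-71653175, minus strand) was at 112, 115, 89.9 and 131 CPM in sham and 593, 203, 292 and 368 CPM in MI, with no overlap (log2 fold change 1.69 ± 0.33 (SE), edgeR adjusted p = 0.00769).

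Of the 7 small leucine-rich proteoglycan genes 6 rose (against 22.0% of all genes) and the median log2 fold change was 1.20. These proteins bind collagen fibrils and set their spacing. Fmod (ENSMUSG00000041559, chr1:134037254-134048277, plus strand), which encodes fibromodulin, was at 3.24, 3.31, 2.37 and 17.9 CPM in sham and 238, 30.0, 132 and 91.7 CPM in MI. The sham values were low apart from CKO-Sham 2, and each MI library exceeded all of them, so that Fmod was 21.3-fold higher, the largest fold among the 42 genes (log2 fold change 4.41 ± 0.85 (SE), edgeR adjusted p = 0.00726). Prelp (ENSMUSG00000041577, chr1:133910304-133921414, minus strand), whose product joins collagen to heparan sulfate, was at 56.6, 54.2, 44.7 and 77.8 CPM in sham and 519.8, 72.7, 264 and 402 CPM in MI. The library fl/fl-MI 2 lay within the sham range (log2 fold change 2.43 ± 0.57 (SE), edgeR adjusted p = 0.0147). The log2 fold change without fl/fl-MI 1 was 3.32 in Fmod and 1.40 in Prelp, without fl/fl-MI 2 it was 4.83 and 2.84, and without CKO-Sham 2 it was 5.46 in Fmod. Bgn (ENSMUSG00000031375, chrX:73483602-73495933, plus strand), which encodes biglycan, was at 278, 300.3, 238 and 347 CPM in sham and 1488, 452, 913 and 1383 CPM in MI, without overlap (log2 fold change 1.86 ± 0.38 (SE), edgeR adjusted p = 0.00874). Lum, which encodes lumican, had 74.6 to 83.5 CPM in sham and 286, 135, 141 and 131 CPM in MI (log2 fold change 1.10 ± 0.23 (SE), edgeR adjusted p = 0.00923). Ogn, which encodes osteoglycin, had 86.6 to 100.05 CPM in sham and 398, 131, 167 and 145 CPM in MI (log2 fold change 1.15 ± 0.32 (SE), edgeR adjusted p = 0.0258). Dcn, the most abundant of the role, had 717 to 753 CPM in sham and 1775, 939, 975 and 1214 CPM in MI (log2 fold change 0.74 ± 0.21 (SE), edgeR adjusted p = 0.0303). In Lum, Ogn and Dcn fl/fl-MI 1 was the highest MI library and the other 3 were close together. Aspn, which encodes asporin, was at 54.3, 47.5, 43.1 and 65.6 CPM in sham and 275, 26.4, 123 and 70.1 CPM in MI, so that its groups overlapped through fl/fl-MI 2 (log2 fold change 1.20 ± 0.63 (SE), edgeR adjusted p = 0.166). Its log2 fold change was 1.63 without fl/fl-MI 2 and -0.074 without fl/fl-MI 1.

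Versican, the large proteoglycan that binds hyaluronan in provisional matrix, rose as well. Vcan (ENSMUSG00000021614, chr13:89655312-89742509, minus strand) was at 25.8, 24.3, 18.5 and 35.0 CPM in sham and 94.5, 41.7, 64.6 and 178 CPM in MI. CKO-MI 2 was the highest and fl/fl-MI 2 the lowest MI library, and all 4 were above sham (log2 fold change 1.81 ± 0.41 (SE), edgeR adjusted p = 0.0129).

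With all libraries, elastic fiber and microfibril genes were split by the threshold. Of 11 tested, 4 rose (Fbln1, Efemp1, Mfap4 and Mfap5), against 22.0% of all genes. The other 7 did not pass the test, and the median was 0.92. Fbln1 (ENSMUSG00000006369, chr15:85205949-85286535, plus strand), which encodes a fibulin found in elastic fibers and basement membranes, was at 76.5, 76.1, 79.7 and 87.6 CPM in sham and 619.6, 254, 316 and 417 CPM in MI. The sham values lay close together and the lowest MI value, that of fl/fl-MI 2, was far above them (log2 fold change 2.32 ± 0.28 (SE), edgeR adjusted p = 0.00149). Mfap4 (ENSMUSG00000042436, chr11:61485431-61488900, plus strand), which encodes a microfibril-associated protein, was at 16.7, 19.8, 11.5 and 33.1 CPM in sham and 256, 23.2, 119.9 and 131 CPM in MI, and Mfap5 (ENSMUSG00000030116, chr6:122505845-122528766, plus strand), a second such gene, was at 34.6, 35.7, 36.0 and 49.5 CPM in sham and 214, 35.8, 133 and 231 CPM in MI. In both, 3 MI libraries stood clear of sham and fl/fl-MI 2 lay within the sham range (log2 fold change 2.71 ± 0.71 (SE), edgeR adjusted p = 0.0215 for Mfap4, and log2 fold change 1.96 ± 0.52 (SE), edgeR adjusted p = 0.0222 for Mfap5). These were 1.40 and 1.04 without fl/fl-MI 1 and 3.15 and 2.35 without fl/fl-MI 2. Efemp1 (ENSMUSG00000020467, chr11:28853204-28926743, plus strand), which encodes another fibulin, was at 10.2, 8.75, 4.92 and 7.75 CPM in sham and 25.3, 34.3, 6.81 and 9.92 CPM in MI. Only the libraries labelled fl/fl-MI were above all sham values, and both CKO-MI values lay within the sham range (log2 fold change 1.03 ± 0.21 (SE), edgeR adjusted p = 0.00944, and 0.91 without fl/fl-MI 2). Elastin itself did not pass: Eln was at 54.3, 70.2, 73.8 and 91.9 CPM in sham and 256, 74.3, 78.7 and 145 CPM in MI (log2 fold change 0.92 ± 0.39 (SE), edgeR adjusted p = 0.0991). The same held for Fbn1, the fibrillin gene of adult microfibrils, at 95.4, 89.2, 92.2 and 106 CPM in sham and 231, 96.2, 117 and 398 CPM in MI (log2 fold change 1.10 ± 0.41 (SE), edgeR adjusted p = 0.0714). Emilin1 (0.83), Fbln5 (0.59), Mfap2 (0.45), Efemp2 (0.44) and Fbln2 (0.39) had positive log2 fold changes that did not pass. Several of these genes depended on the fl/fl-MI libraries. Without fl/fl-MI 2 the log2 fold change was 1.24 in Eln, 1.35 in Fbn1, 1.07 in Emilin1 and 0.86 in Fbln5. Without fl/fl-MI 1 it was 0.32, 0.70, 0.46 and 0.12. Fbn2 (ENSMUSG00000024598, chr18:58008623-58210487, minus strand), the fibrillin gene best known from development, was too low to be tested, at 2.03, 2.29, 2.07 and 3.55 CPM in sham and 3.17, 0.881, 2.92 and 6.47 CPM in MI.

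The 8 basement membrane genes had the lowest median of the roles, -0.06, with 2 higher and 1 lower (against 22.0% and 18.3% of all genes). Lamc1 (ENSMUSG00000026478, chr1:153218922-153332786, minus strand), the gamma chain of most cardiac laminins, was at 181, 156, 151 and 171 CPM in sham and 358, 236, 321 and 387 CPM in MI, with all MI values above all sham values (log2 fold change 0.98 ± 0.16 (SE), edgeR adjusted p = 0.00457). Lama2 (ENSMUSG00000019899, chr10:26980036-27619758, minus strand), the alpha chain of muscle laminin, was at 72.5, 80.2, 67.2 and 78.4 CPM in sham and 154, 89.1, 130.5 and 113 CPM in MI, also without overlap (log2 fold change 0.70 ± 0.18 (SE), edgeR adjusted p = 0.0208). Hspg2 (ENSMUSG00000028763, chr4:137468769-137570630, plus strand), which encodes the heparan sulfate proteoglycan perlecan, was at 622, 616, 528 and 686 CPM in sham and 424, 356, 506 and 542 CPM in MI, with overlapping groups, and it fell (log2 fold change -0.44 ± 0.13 (SE), edgeR adjusted p = 0.0365), but its log2 fold change was 0.13 both with total counts and with log2(FPKM + 1). Lamb1 (ENSMUSG00000002900, chr12:31265234-31329644, plus strand), a laminin beta chain, was at 108, 94.6, 95.1 and 83.9 CPM in sham and 67.6, 79.6, 81.5 and 81.0 CPM in MI, every MI value being below every sham value, without passing the test (log2 fold change -0.30 ± 0.11 (SE), edgeR adjusted p = 0.0597), and with total counts its sign turned (0.26). Lama4 (-0.19), Nid2 (-0.10), Lamb2 (-0.03) and Nid1 (0.16) did not pass. Lamb2 varied little, from 328 to 373 CPM in sham and from 316 to 361 CPM in MI. Nid2, Lama4 and Lamb2 also turned sign with total counts.

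Both enhancers of procollagen C-proteinase, which speed the cleavage that lets collagen form fibrils, rose. Pcolce2 (ENSMUSG00000015354, chr9:95637601-95698096, plus strand) was at 18.2, 16.5, 22.0 and 21.5 CPM in sham and 70.5, 37.0, 41.5 and 41.7 CPM in MI (log2 fold change 1.28 ± 0.20 (SE), edgeR adjusted p = 0.00325). Pcolce (ENSMUSG00000029718, chr5:137605103-137613784, minus strand) was at 59.9, 58.3, 48.6 and 56.2 CPM in sham and 108, 85.1, 69.8 and 132 CPM in MI (log2 fold change 0.83 ± 0.21 (SE), edgeR adjusted p = 0.0183). Neither had overlapping groups.

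Sums of marker genes of several cell types differed between the same groups. None of the marker lists held any of the 43 genes. The 7 fibroblast markers summed to 2433 to 2712 CPM in sham and to 6553, 4519, 3768 and 4949 CPM in MI, and the 6 markers of activated fibroblasts to 99.98 to 198 CPM in sham and 1086, 270.0, 580.2 and 651 CPM in MI. Single genes made up most of these sums. Without Gsn, which encodes the actin-severing protein gelsolin, the fibroblast sum was 537 to 666 CPM in sham and 2365, 901, 1316 and 2126 CPM in MI. Most of this remainder after MI came from the collagen genes Col1a1 (682, 222, 377 and 754 CPM) and Col1a2 (948, 312, 493 and 784 CPM). Both are also among the partner genes below. Without Comp, a cartilage matrix gene that had 9.54 to 30.6 CPM in sham and 847, 62.1, 416 and 458 CPM in MI, the sum of the activated markers was 90.3 to 168 CPM in sham and 239, 208, 165 and 193 CPM in MI. After MI 5 of the 7 fibroblast markers and 4 of the 6 activated markers rose (against 22.0% of all genes), while Acta2 (log2 fold change 0.14) and Cnn1 (0.06), both contractile genes, did not pass. Library fl/fl-MI 2 was the lowest MI library in 4 of the 7 and in 4 of the 6, and the highest in Acta2 with 181 CPM. The 8 cardiomyocyte markers summed to 31686 to 36038 CPM in sham and 20719, 47640.3, 39150.3 and 26159.8 CPM in MI, and the 6 macrophage markers to 357 to 398 CPM in sham and 934, 663, 362 and 592 CPM in MI. Of the 8 cardiomyocyte markers 3 were called higher and 2 lower (against 22.0% and 18.3% of all genes). Endothelial markers (5 genes) summed to 1343 to 1437 CPM in sham and 429 to 672 CPM in MI, and those of smooth muscle and pericytes (5 genes) to 1213 to 1359.5 CPM and 324 to 621 CPM. Most of the last sum was Rgs5. Without Rgs5 it was 239 to 352 CPM in sham and 274, 121, 217 and 243 CPM in MI, with overlap. Of these 5 markers 3 were called lower (against 18.3%). All 5 endothelial markers and 2 of the 3 Schwann cell markers were called lower as well. Called higher were 3 of the 6 macrophage markers and 2 of the 4 epicardial markers (against 22.0%). Of the 5 atrial markers only Nppa, the atrial natriuretic peptide gene, passed the test, with 106 to 504 CPM in sham and 4400, 11746, 4419 and 2520 CPM in MI. The other 4 summed to 28.6 to 90.1 CPM in sham, to 8111 CPM in fl/fl-MI 2 and to 26.7 to 31.0 CPM in the other MI libraries. The 4 epicardial markers summed to 33.2 to 43.6 CPM in sham and 33.4 to 160.4 CPM in MI. Valve or cartilage markers (4 genes) reached at most 22.3 CPM and Schwann cell markers (3 genes) at most 21.5 CPM. In each list some marker was detected in each group, and the markers at 0 were 1 valve marker in fl/fl-Sham and 1 Schwann cell marker in CKO-MI. The part of cell content in the changes of the matrix genes was not tested.

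MI was next compared with sham within each genotype label, in comparisons whose group means share no library but whose tests use a shared estimate of spread. In the libraries labelled fl/fl, 8 of 42 genes rose (19.0%, against 10.1% of all genes), 1 fell (2.38%, against 8.45%), and 18.5% of all genes were called in either direction. The 8 were Thbs1 (log2 fold change 3.55), Thbs3 (0.96), Fn1 (1.81), Lum (1.41), Fmod (5.35), Fbln1 (2.52), Efemp1 (1.65) and Pcolce2 (1.63), and Sparcl1 fell by 1.16 on the log2 scale. The median was 0.89 against 0.05 for all genes. The count of 9 rested on single libraries, as edgeR called none without fl/fl-Sham 1 or without fl/fl-Sham 2 (11 with an unadjusted p under 0.05 in each, where 0.898% and 0.848% of all genes were called), 30 without fl/fl-MI 2 (28 higher and 2 lower, against 15.8% and 13.7% of all genes) and 10 without fl/fl-MI 1 (7 higher and 3 lower, against 15.3% and 14.5%). Without fl/fl-MI 1 the median was 0.19. With both fl/fl-MI libraries 27 of 42 genes had an unadjusted p under 0.05, against 36.3% of all genes, and DESeq2 called 24 (against 28.8%). With at least 2-fold in addition 17 were higher (40.5%, against 8.21%) and 1, Sparcl1, lower (2.38%, against 7.22%).

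In the libraries labelled CKO, 9 of 42 genes rose (21.4%, against 12.8% of all genes) and none fell (against 11.9%), with 24.7% of all genes called in either direction. They were Postn (log2 fold change 5.15), Thbs1 (1.88), Thbs3 (1.29), Fn1 (1.58), Bgn (1.97), Vcan (2.18), Fbln1 (2.13), Lamc1 (1.14) and Pcolce2 (0.93). The median was 0.81 against 0.01 for all genes. An unadjusted p under 0.05 was found in 18 (42.9%, against 39.9% of all genes). Of the lower genes, Sparcl1 alone had one (log2 fold change -0.53), which is 2.38% against 19.3% of all genes. With at least 2-fold in addition 13 were higher (31.0%, against 7.63%) and none lower (against 9.35%). DESeq2 called 16 (38.1%, against 33.7% of all genes) and limma on log2(FPKM + 1) called 21 (50.0%, against 36.8%) in either direction. Without CKO-Sham 1 or without CKO-Sham 2 edgeR called none of the 42 (6 and 14 with an unadjusted p under 0.05, where 0.178% and 5.09% of all genes were called), without CKO-MI 2 it was 2 (against 10.1%), without CKO-MI 1 it was 6 (against 8.74%), and without fl/fl-Sham 1 or fl/fl-Sham 2, which enter only the shared estimate of spread, it was 5 (against 13.5% in each). Without fl/fl-MI 1 or without fl/fl-MI 2, which likewise enter only the spread, 26 were called (25 higher and 1 lower, against 20.8% and 20.2% of all genes without fl/fl-MI 1, and 21.6% and 19.7% without fl/fl-MI 2). Called higher under both labels were 5 genes, Thbs1, Thbs3, Fn1, Fbln1 and Pcolce2, which are 5 of the 8 and 5 of the 9. The share of all genes called under both labels was not counted, so this overlap has no background beside it. Postn had the largest change here, with 14.9 and 19.2 CPM in CKO-Sham and 492 and 718 CPM in CKO-MI.

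The central comparison of the design is CKO-MI against fl/fl-MI. With edgeR none of the 42 genes was called, and none of all 14028 genes either (0%). The median log2 difference was -0.02, with 20 genes above and 22 below 0. At an unadjusted p under 0.05 there was 1 gene, Efemp1, against 8.31% of all genes, and it alone was also at least 2-fold apart (2.38%, against 3.21%). Efemp1 was lower in the libraries labelled CKO-MI, at 6.81 and 9.92 CPM against 25.3 and 34.3 CPM (log2 difference -1.83 ± 0.31 (SE), edgeR adjusted p = 0.454). DESeq2 called this gene alone of the 42 (adjusted p = 4.0e-05, with 1.48% of all genes called) and limma called none. The adjusted p of Efemp1 over the other settings ran up to 0.9996 with only the 4 MI libraries, or 1 with a replicate block over them, and down to 0.0097 in edgeR without fl/fl-MI 1. Groups did not overlap in 5 genes: Sparcl1, Hspg2 and Lamb1 were higher in CKO-MI (7.14%, against 14.5% of all genes), and Thbs1 and Efemp1 were lower (4.76%, against 15.5%).

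The direction of this comparison depended on which fl/fl-MI library was kept. Without fl/fl-MI 2, 33 of 42 genes were lower in CKO-MI and 9 higher, with a median of -0.40. Only Ogn was then called, 1.35 lower on the log2 scale (log2 difference -1.35 ± 0.15 (SE), edgeR adjusted p = 0.0257), where 0.178% of all genes were called lower. Without fl/fl-MI 1, 36 of 42 were higher in CKO-MI and 6 lower, with a median of 0.60. Then 11 genes were called higher (26.2%, against 5.90% of all genes), namely Postn, Thbs4, Sparc, Sparcl1, Smoc2, Cilp, Bgn, Aspn, Prelp, Mfap4 and Mfap5. Efemp1 was called lower (2.38%, against 6.04%). Postn was 2.46 ± 0.28 higher and Thbs4 4.98 ± 1.24 higher (log2 difference ± SE) against fl/fl-MI 2 alone, and the same genes were -0.43 ± 0.25 and -0.08 ± 0.93 against fl/fl-MI 1 alone. These fits assume for the lone fl/fl-MI library the spread of the other groups. Efemp1 kept its sign in both, at -1.59 without fl/fl-MI 2 and -2.02 without fl/fl-MI 1.

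**Figure D5:**
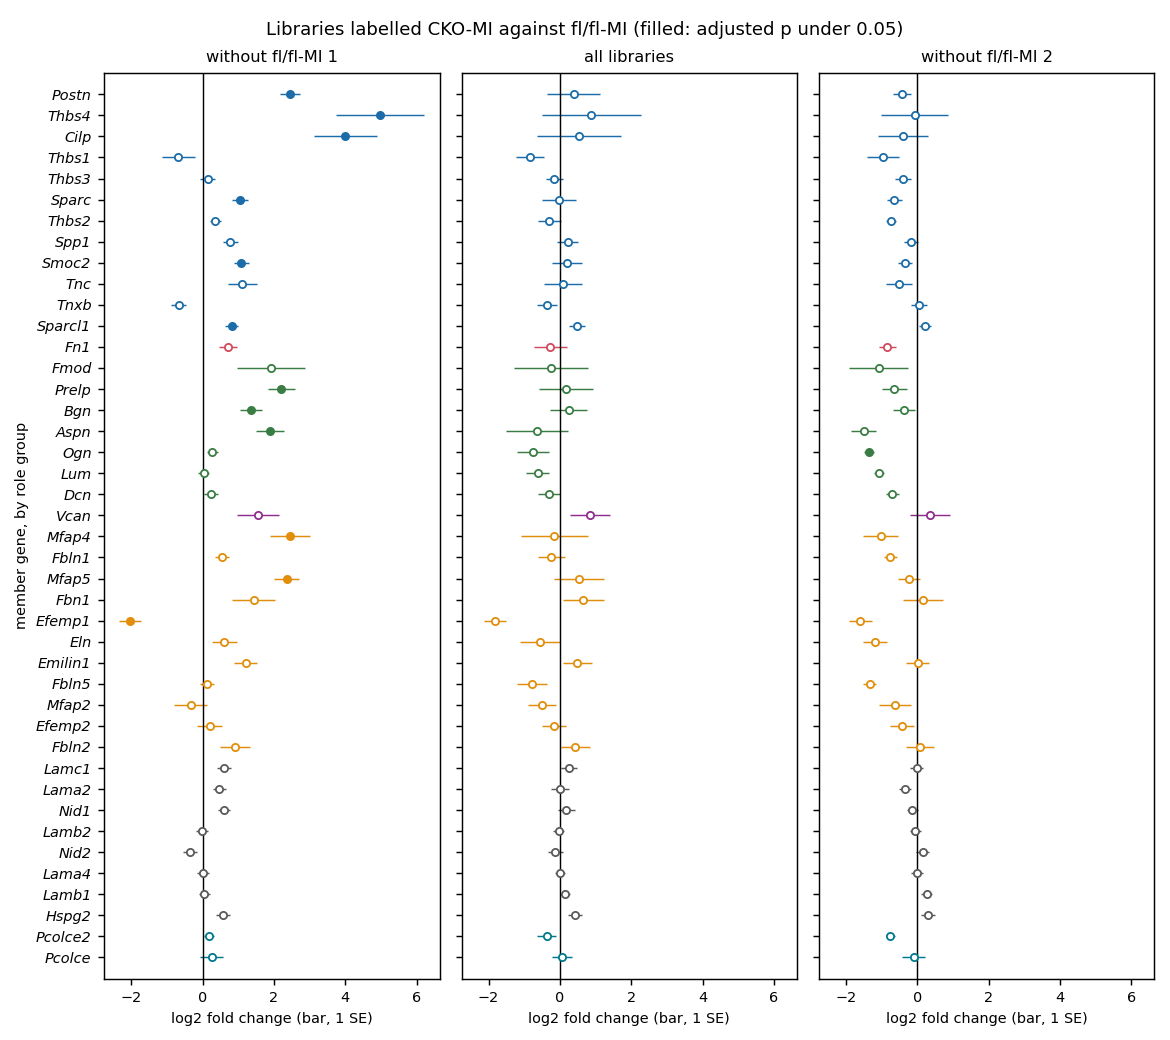
Log2 difference of CKO-MI minus fl/fl-MI (x axis) for the 42 tested genes (y axis) without fl/fl-MI 1 (left), with all libraries (middle) and without fl/fl-MI 2 (right), with bars of 1 SE. The median is 0.60 on the left, -0.02 in the middle and -0.40 on the right.

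Of the 4 pairs of replicates, the fl/fl-MI libraries differed most from each other. Library fl/fl-MI 1 exceeded fl/fl-MI 2 by a median of 2.12-fold over the 42 genes, and in 22 of them by over 2-fold, against 8.61% of all genes. CKO-MI 2 exceeded CKO-MI 1 by a median of 1.25-fold, with 3 genes over 2-fold, against 3.65% of all genes. Library fl/fl-MI 2 was the lowest MI library in 29 of 42 genes (69.0%, against 34.5% of all genes), and fl/fl-MI 1 was the highest in 26 (61.9%, against 24.6%). The median log2 level over the sham mean was 1.37 in fl/fl-MI 1, 0.21 in fl/fl-MI 2, 0.54 in CKO-MI 1 and 0.90 in CKO-MI 2, while for all genes it lay between -0.02 and 0.03. The sham libraries labelled CKO were also spread: CKO-Sham 1 was the lowest of the sham libraries in 24 genes (57.1%, against 27.7%) and CKO-Sham 2 the highest in 22 (52.4%, against 24.8%). Thbs4, Cilp and Fmod show this spread most, at 3.76, 13.9 and 2.37 CPM in CKO-Sham 1 and 33.6, 64.9 and 17.9 CPM in CKO-Sham 2.

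CKO-Sham was compared with fl/fl-Sham to ask whether the genotype label alone went with a difference. With edgeR none of the 42 genes was called, and 0.00713% of all genes, and the median was 0.01. Postn alone had an unadjusted p under 0.05 (2.38%, against 3.89% of all genes), and it was also at least 2-fold apart (against 0.891%). It was at 14.9 and 19.2 CPM in CKO-Sham and 74.6 and 70.2 CPM in fl/fl-Sham (log2 difference -2.09 ± 0.78 (SE), edgeR adjusted p = 0.9997). DESeq2 and limma called none. The adjusted p of Postn was 0.0525 without fl/fl-MI 1, 0.0511 without fl/fl-MI 2 and 0.00206 in a fit of the 4 sham libraries alone, which called 1.18% of all genes. Of all settings run it passed only in the last. The groups did not overlap in 9 genes that were higher in CKO-Sham (21.4%, against 23.2% of all genes) and 12 that were lower (28.6%, against 23.8%).

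The interaction of genotype label and MI, the test of whether the MI change differed between labels, called none of the 42 genes with edgeR, and 0% of all genes. DESeq2 and limma also called none of the 42. Thbs1 (log2 difference of changes -1.67 ± 0.57 (SE)) and Efemp1 (-1.25 ± 0.42) had an unadjusted p under 0.05 (4.76%, against 8.49% of all genes), both over 2-fold (4.76%, against 4.10%), each with an edgeR adjusted p of 0.574. For Thbs1 the change was 3.55 under the fl/fl label and 1.88 under the CKO label, and for Efemp1 1.65 and 0.40. Postn went the other way, with 2.68 and 5.15 (interaction 2.48 ± 1.07, unadjusted p = 0.0537 in edgeR). Without fl/fl-MI 1, 4 genes had a larger MI change under the CKO label, namely Postn, Smoc2, Prelp and Mfap5 (9.52%, against 2.28% of all genes), and the median was 0.57. Without fl/fl-MI 2 none was called, 15 had an unadjusted p under 0.05 (against 14.9% of all genes) and the median was -0.45.

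Genes that act with these proteins were taken from separate lists of 53 genes, of which 46 were tested. Over both genotypes 31 of the 46 rose after MI (67.4%, against 22.0% of all genes) and 2 fell (4.35%, against 18.3%), with a median of 1.02. All 5 fibrillar collagen genes rose, from Col5a1 (log2 fold change 1.37 ± 0.36) to Col3a1 (2.27 ± 0.47). Of 6 crosslinking enzymes 5 rose, with the largest change in Lox, lysyl oxidase (2.58 ± 0.57). Of 7 genes for TGF-beta and its latent binding proteins 6 rose, with Ltbp2 (3.94 ± 0.96) and Tgfb2 (2.04 ± 0.45) highest, and Tgfb1 did not pass (0.28 ± 0.11, edgeR adjusted p = 0.0746). Of 10 matrix receptors 8 rose, among them the integrin genes Itga9 (1.86 ± 0.32) and Itgb5 (1.66 ± 0.35) and Dag1, the dystroglycan that binds laminin (1.32 ± 0.13). The cardiomyocyte integrin gene Itga7 (0.09 ± 0.10) and Itga8 (-0.12 ± 0.36) did not pass.

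The partners of the basement membrane and of proteoglycan synthesis were mixed (over all genes 22.0% rose and 18.3% fell). Of 4 basement membrane collagen genes only Col15a1 rose (1.32 ± 0.26). Among laminin chain genes outside the main list, Lama5, the alpha chain of vascular laminins, fell (-1.42 ± 0.13), and Lamb3 did not pass (-0.23 ± 0.43). Of 8 genes for glycosaminoglycan synthesis 4 rose (Has1, Has2, Chsy1 and Ext1) and Xylt2, a xylosyltransferase, fell (-0.45 ± 0.13). The largest of these, that of the hyaluronan synthase Has1 (3.61 ± 0.79), came with its highest value, 21.5 CPM, in fl/fl-MI 2, and was 2.34 ± 0.45 without this library. Of 3 tested procollagen peptidase genes Adamts2 rose (1.99 ± 0.34), whereas Bmp1, the C-proteinase that the products of Pcolce and Pcolce2 enhance, did not pass (-0.12 ± 0.19). Between CKO-MI and fl/fl-MI none of the 46 was called with edgeR and 5 had an unadjusted p under 0.05 (against 8.31% of all genes), between the sham groups none and 1 (against 3.89%), and for the interaction none and 3 (against 8.49%). The genotype comparison after MI again called none of the 46 without fl/fl-MI 2, with 9 at an unadjusted p under 0.05 (against 11.8%), and without fl/fl-MI 1, 10 were higher and 4 lower in CKO-MI (against 5.90% and 6.04%). DESeq2 and limma were not tabulated for these lists.

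Transcripts of 4 genes known for alternative splicing were listed in the deposited transcript table. In Tnc a single transcript took most of the FPKM in 7 of 8 libraries, but it was ENSMUST00000107377 in fl/fl-Sham 1 (95.0%), fl/fl-MI 1 (89.9%) and CKO-MI 2 (93.3%) and ENSMUST00000107372, of nearly equal length, in fl/fl-Sham 2 (93.3%), CKO-Sham 1 (97.5%), CKO-Sham 2 (98.0%) and fl/fl-MI 2 (88.3%). CKO-MI 1 divided them at 53.8% and 43.8%. The main transcript thus differed between the replicates of fl/fl-Sham and of fl/fl-MI. In Vcan the transcript of 12427 bases took 14.5% to 81.3%, in Fn1 ENSMUST00000055226 took 14.3% to 47.1%, and in Postn ENSMUST00000073012 took 22.4% to 63.4%. In these 3 transcripts the MI and sham shares overlapped. Another Postn transcript, ENSMUST00000107985, chosen after its values were seen, took 21.4% to 26.5% of the gene's FPKM in sham and 5.95%, 18.5%, 11.6% and 5.62% in MI, without overlap. This was not particular to it. At far smaller shares, Fn1 ENSMUST00000186940 also separated, with 0.0342% to 0.105% in sham and 0.0089% to 0.0217% in MI. The share of all transcripts that separated in this way was not counted. No test was run on these shares.

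Several of the 43 genes are neighbours. Dcn and Lum lie 47 kb apart on chromosome 10, Aspn and Ogn 40.5 kb apart on chromosome 13, Prelp and Fmod 115.8 kb apart on chromosome 1, Smoc2 and Thbs2 260.7 kb apart on chromosome 17, and Sparcl1 and Spp1 321.4 kb apart on chromosome 5. Dcn and Lum both rose after MI, by 0.74 and 1.10, and so did Prelp and Fmod, by 2.43 and 4.41 on the log2 scale. Sparcl1 and Spp1 went opposite ways, by -0.85 and 0.70. In the other pairs Ogn (1.15) and Thbs2 (0.76) rose, whereas Aspn (1.20) and Smoc2 (0.56) did not pass the test. Other genes lie between the members of every pair except Dcn and Lum. Efemp2, Mfap4, Nid2 and Pcolce overlap an expressed gene on the other strand (Mus81, Mapk7, Rtraf and Gm36266), so their counts are less certain if the counting did not use strand, which is not given in the sources used here.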

How the data were processed

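The authors sequenced paired-end poly(A) RNA and deposited, per gene and per transcript, FPKM and estimated counts. Per the submitters' processing notes reads were trimmed with cutadapt 1.9. The aligner, counter and build are not given in the sources used here. 38 of the 43 genes had the coordinates of GENCODE M21 (GRCm38). The deposited counts pile up at multiples of 4 (on average 1106.5 genes per library at a count of 4, 469.1 at 3 and 325.5 at 5), so a fragment appears to add 4 to a count, and dividing by 4 was an alternative. Depth was then 18455437 to 22029393 per library. Some tested genes had low counts, such as Mfap2 with deposited counts of 128, 189, 260 and 157 in sham. Counting error was thus not small for all of them. The 2 replicates per group limited precision as well.

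Counts rounded to whole numbers were fitted over all 8 libraries with edgeR 4.0.16 (quasi-likelihood test, TMM, 4 group means) in R 4.3.3, for genes whose mean FPKM reached 0.5, with Benjamini-Hochberg adjustment over 14028 genes and a threshold of 0.05. CPM are TMM-scaled. Alternatives were DESeq2 1.42.0, limma 3.58.1 on log2 of FPKM plus 1 or 0.1, other scalings and filters, a replicate block, and each library left out. Scripts were tested on simulated data. The 43 genes, the roles and the lists were chosen with earlier results of these data known. Values of every library are given for the 3 called genes with the largest MI change in each role, genes lower after MI or differing by genotype or interaction at an unadjusted p under 0.05, and genes under the filter. The others are given by range or log2 fold change, and values of any more were chosen after they were seen.

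Groups follow the labels. The values of 1 partner gene are not reported here, although counts over the whole partner list include it. Promoters are RefSeq sequences on GRCm38.p6. Comparisons between 2 libraries and 2 libraries cannot pass an exact permutation test (smallest two-sided p 0.33), so only model-based tests were used. Figures were drawn with matplotlib 3.10.9.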

Additional observations from a re-analysis of the deposited data

How the results depend on the processing

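In MI against sham the counts of called genes were less firm than the directions. In CKO-MI against fl/fl-MI most directions depended on which fl/fl-MI library was kept. Only Fbn2 lay under the FPKM limit. In MI against sham over both genotypes, of 457 single-gene values under settings that leave out no library 383 kept direction and side of the threshold, 41 became called, 14 lost the call and 19 turned sign. With a library left out the number called ran from 12 to 36 and the median from 0.46 to 1.08. Signs turned without fl/fl-MI 1 in Tnc (-0.12; range up to 0.72), Aspn (-0.074; up to 1.63), Nid1 (-0.059; up to 0.32) and Nid2 (0.0016; down to -0.24), and without CKO-MI 2 in Lamb2 (0.0044; down to -0.11). With total counts log2 fold changes turned to 0.26 in Tnxb, 0.13 in Hspg2, 0.45 in Nid2, 0.38 in Lama4, 0.26 in Lamb1 and 0.53 in Lamb2, with log2(FPKM + 1) to 0.22, 0.13, 0.39, 0.33, 0.24 and 0.53, and with log2(FPKM + 0.1) to 0.23, 0.13, 0.45, 0.37, 0.26 and 0.54. These settings shift the median of all genes. Without a filter Lamb2 was at 0.039, and the cause was not tested.

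Other counts were as follows, with the share of all genes called in parentheses and causes not tested. In fl/fl-MI against fl/fl-Sham, against 9, DESeq2 called 24 (28.8%), total counts 27 (41.6%), limma 18 with a pseudocount of 1 (37.5%) and 19 with 0.1 (38.8%), no filter 17 (8.00%), only the 4 libraries compared 1 (1.42%), and an unadjusted p under 0.05 with at least 2-fold 18 (15.4%). With a library left out it was 0 to 30 (0.848% to 29.8%), with medians of 0.19 to 1.31. In CKO-MI against CKO-Sham, against 9, these were 16 (33.7%), 25 (39.3%), 21 (36.8%), 24 (38.4%), 14 (9.53%), 21 (34.5%) and 13 (17.0%), a mean FPKM of at least 5 gave 5 (38.1%), and a library left out gave 0 to 26 (0.178% to 41.3%). In CKO-MI against fl/fl-MI, against 0, DESeq2 gave 1 (1.48%) and the 2-fold rule 1 (3.21%), and a library left out 0 to 12 (0% to 11.9%), with medians of -0.40 to 0.60. In CKO-Sham against fl/fl-Sham, against 0, the 4 libraries alone gave 1 (1.18%) and the 2-fold rule 1 (0.891%). For the interaction, against 0, the 2-fold rule gave 2 (4.10%), and a library left out 0 to 4 (0% to 5.35%), with medians of -0.45 to 0.57. Same-numbered replicates did not deviate together (correlations of -0.14 to 0.06 over 14028 genes), so the numbers were not taken as pairs. The replicate block gave 19 calls over both genotypes (36.2%) and 5 within each genotype label (1689 of all genes for fl/fl and 2677 for CKO), and in CKO-MI against fl/fl-MI a block over the 4 libraries, also with crossed numbers, gave 0. The block over 4 libraries and the fit without genotype labels were chosen after seeing the data. The latter called 25 of the 42 genes (41.7% of all genes). Compared with the main fit, Fbn1 and Emilin1 were then called and Efemp1 and Hspg2 were not.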
